A study of Mus musculus with 2 samples.

Results

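Runx1, Runx2, Runx3, Cbfb, Cbfa2t2, Cbfa2t3, Myb and Mybl2 were followed in mouse bone marrow progenitors treated to excise Cebpa, the gene of C/EBPα, or given vehicle. Part of the Cebpa transcript remained, at 42.8 FPKM in 4OHT cells against 109 FPKM in vehicle cells. The members were the 8 rows, of 23309 in the authors' deposited table, whose gene symbol equalled one of those names, and all 8 were tested by the authors and lay above 5 FPKM (fragment counts scaled to transcript length and library size) in both conditions. The cells were lineage-depleted progenitors of genotype Cebpaf/f;CreER, so that Cre recombinase fused to an oestrogen receptor could excise Cebpa once 4-hydroxytamoxifen (4OHT) was added. All cells, in both conditions, carried the retroviral constructs MIGR1-HA-Hoxa9 and MIGR1-Flag-Meis1, a pair of leukaemia-driving homeobox genes, and grew in interleukin-3. One culture condition received 5 nM 4OHT for 72 h and the other ethanol, the vehicle, for 72 h. Each condition has 1 deposited value per gene, which joins 2 replicates, so no spread between replicates can be given. The sources used here do not name the promoter that drives CreER, and 4OHT given to CreER cells without loxP-flanked Cebpa was not analysed here.

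RUNX proteins bind DNA through their Runt domain as heterodimers with CBFβ, the product of Cbfb, which binds no DNA itself and stabilises the complex. Runx1 is required for the emergence of definitive blood stem cells, Runx2 for bone formation and Runx3 for cytotoxic T cell identity, while Myb sustains progenitor proliferation and Mybl2 drives genes of mitosis in dividing cells. Cbfa2t2 and Cbfa2t3, which are corepressors of the ETO family and bind no DNA on their own, are named after the RUNX1 fusion partner in leukaemia. RUNX1 and C/EBPα act together on many myeloid promoters.

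A promoter of each Runx gene holds a shared stretch of sequence, which is shown because it sets these genes apart from the other members. RefSeq (GRCm38.p6) start sites were available for all 8 members, with 11 windows of 250 bases before and 50 after a start. Each Runx gene is known to use a distal and a proximal promoter, and the windows below are the more upstream of those listed for Runx1 and Runx3 and the only one listed for Runx2. Each is printed 5′ to 3′ on the strand of the gene, minus for Runx1 and Runx2 and plus for Runx3, and capitals mark the RUNX hexamer TGTGGT, or its complement ACCACA.
Runx1, chr16:92826025-92826324: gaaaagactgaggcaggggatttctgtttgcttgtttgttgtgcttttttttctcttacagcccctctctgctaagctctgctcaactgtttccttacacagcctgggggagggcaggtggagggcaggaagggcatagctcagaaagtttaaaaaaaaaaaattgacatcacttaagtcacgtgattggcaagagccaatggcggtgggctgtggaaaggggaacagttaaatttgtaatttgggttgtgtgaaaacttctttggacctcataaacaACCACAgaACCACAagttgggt
Runx2, chr17:44814578-44814877: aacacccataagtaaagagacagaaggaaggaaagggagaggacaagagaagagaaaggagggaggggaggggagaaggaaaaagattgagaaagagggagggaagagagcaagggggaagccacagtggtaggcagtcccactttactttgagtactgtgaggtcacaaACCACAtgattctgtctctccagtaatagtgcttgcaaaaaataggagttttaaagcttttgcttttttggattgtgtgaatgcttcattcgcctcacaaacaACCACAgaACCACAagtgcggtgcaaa
Runx3, chr4:135120395-135120694: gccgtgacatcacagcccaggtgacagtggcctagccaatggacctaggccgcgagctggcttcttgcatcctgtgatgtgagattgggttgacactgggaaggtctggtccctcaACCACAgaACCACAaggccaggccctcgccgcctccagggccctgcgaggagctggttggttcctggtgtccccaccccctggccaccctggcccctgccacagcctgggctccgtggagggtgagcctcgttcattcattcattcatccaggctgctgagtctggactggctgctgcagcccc

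All 3 windows held a pair of hexamers in tandem, 8 bases apart from first base to first base, starting at base 279 of the Runx1 window, 274 of the Runx2 window and 117 of the Runx3 window. The longest run common to the 3 windows was 18 bases long, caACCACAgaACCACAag, and Runx1 and Runx2 shared 22 bases, aaacaACCACAgaACCACAagt. The other listed windows of Runx1 and Runx3 held neither the pair nor a single hexamer. The single hexamer, searched on both strands, was present in 16.8% of 32851 windows. The tandem pair TGTGGTNNTGTGGT, chosen after the windows were seen, was present in 7 windows, or 0.0213%. Besides the 3 Runx genes these belonged to Gm16225, whose window overlaps that of Runx3 on the other strand, and to Gm15462, Olfr24 and Gm12236. The C/EBP octamer TTGCNNAA, searched on both strands, occurred in 10.8% of all windows and in 1 of the 11 member windows, at base 203 of the Runx2 window. A match is a description of letters and does not show binding.

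Cbfb, Cbfa2t2, Cbfa2t3, Myb and Mybl2 had none of these hexamers or octamers in their windows. Of these genes, and of all members, only Cbfa2t3 was called changed. Its upstream window, on the minus strand, is shown with the E-box CAGNTG (or its complement CANCTG) in capitals, the motif bound by the E protein and Tal1 complexes that recruit its product.
Cbfa2t3, chr8:122699060-122699359: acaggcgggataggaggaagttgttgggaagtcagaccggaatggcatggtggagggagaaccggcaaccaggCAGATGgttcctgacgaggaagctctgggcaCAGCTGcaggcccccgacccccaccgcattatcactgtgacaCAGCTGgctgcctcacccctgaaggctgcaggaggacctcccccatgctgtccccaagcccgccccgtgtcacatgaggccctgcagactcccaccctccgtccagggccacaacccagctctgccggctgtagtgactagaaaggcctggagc
It held 3 such boxes, as did 5.16% of all windows at 3 or more. At least 1 E-box was in 51.4% of all windows and in 6 of the 11 member windows. Those included windows of Mybl2, Runx3, Myb and Runx1. The GATA letters AGATAA (11.2% of all windows) and the mitotic element TTTGAA (17.9%), searched on both strands, were in none of the 11 member windows. The Myb core AACNG was in 6 of them, and in 80.3% of all windows.

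Among the members, Cbfa2t3 rose after 4OHT and the other 7 were not called. A gene was called when the authors' deposited table gave q under 0.05, where q is their p-value adjusted for multiple testing over 11953 tested rows, and rose and fell are used only of such genes. The background was 2.80% of tested rows called higher, 3.11% called lower and 5.91% called in either direction, beside 12.5% of the members called higher. With 8 genes, that share rests on 1 gene. Of the members, 6 had a higher value in 4OHT cells and 2 a lower one. Their median log2((4OHT FPKM + 1)/(vehicle FPKM + 1)) was 0.14, against 0.00057 over all 10932 tested rows of at least 1 FPKM.

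Myb was the most abundant member in both conditions and Cbfa2t2 the least. In 4OHT cells the order of levels was Myb, Cbfb, Mybl2, Cbfa2t3, Runx3, Runx2, Runx1 and Cbfa2t2. In vehicle cells the order was the same except that Runx3 stood above Cbfa2t3. Without replicates, neighbours in that order cannot be separated by their spread. Among the 10989 rows of at least 1 FPKM in the higher condition, Myb lay at percentile 93.8 in 4OHT cells and 93.7 in vehicle cells, and Cbfa2t2 at 24.9 and 22.8. As the RNA came from bulk cultures, fewer cells of a type and less RNA per cell cannot be told apart.

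**Figure D1:**
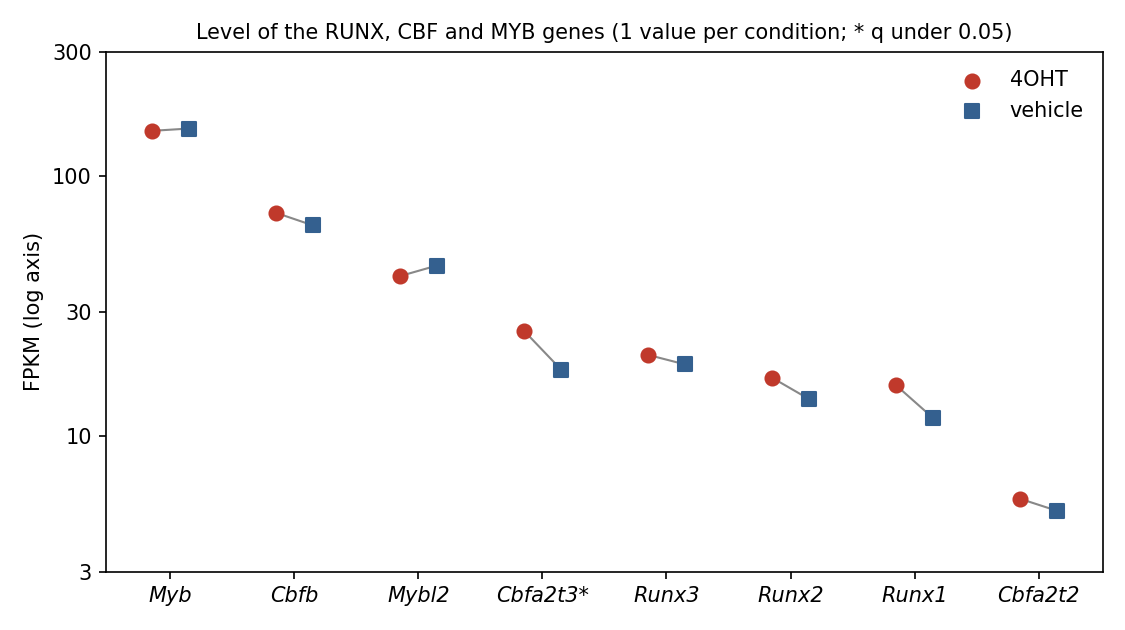
Level in FPKM, on a log axis, of the 8 members in 4OHT cells (circles) and vehicle cells (squares), 1 value each, ordered by level in 4OHT cells. The steepest lines are those of Cbfa2t3 (25.4 against 18.0 FPKM), marked as called by the authors' q, and Runx1 (15.7 against 11.7 FPKM), which was not.

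Cbfa2t3, also known as Eto2 or Mtg16, encodes a corepressor that in the mouse keeps progenitors and stem cells from premature differentiation. It had 25.4 FPKM in 4OHT cells and 18.0 FPKM in vehicle cells. That is a 1.41-fold rise (log2 0.47 with a pseudocount of 1), with p = 0.00205 and q = 0.0367 in the authors' deposited table. The call was near the threshold. A further column of the authors' deposited table, Diff Exp, marks 629 rows, 5.26% of those tested, and every one of them changed by at least 1.5-fold. Cbfa2t3 was among the 78 rows that passed q but were not marked there. Its locus spans 125149036 to 125223009 on chromosome 8 of mm9. Within 100 kb of it the authors' table lists 8 other rows, 7 of them tested and none called.

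Its paralogue Cbfa2t2 (Mtgr1), a corepressor that in the mouse is also needed in germ cells and gut, was low in both conditions. It had 5.73 FPKM in 4OHT cells and 5.15 FPKM in vehicle cells (q = 1.00 in the authors' deposited table). The third ETO gene, Runx1t1 (Eto), had 0.00457 FPKM in 4OHT cells, was listed at 0 in vehicle cells and was not tested. Cbfa2t3 was therefore the main ETO transcript here, 4.43 times Cbfa2t2 in 4OHT cells and 3.49 times in vehicle cells, in FPKM.

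The 3 Runx genes were transcribed at similar levels, and none was called. Runx1 had 15.7 FPKM in 4OHT cells and 11.7 FPKM in vehicle cells, 1.34-fold higher, with p = 0.0114 and q = 0.144 in the authors' deposited table. Runx2 had 16.7 FPKM in 4OHT cells and 13.8 FPKM in vehicle cells (1.21-fold, q = 0.694 in that table). Runx3 had 20.5 FPKM in 4OHT cells and 18.8 FPKM in vehicle cells (1.09-fold, q = 1.00 there). All 3 values were higher in 4OHT cells, by amounts that the authors' test did not call. Together they came to 52.9 FPKM in 4OHT cells and 44.4 FPKM in vehicle cells, 1.19-fold higher. Runx3 made up 38.7% of that sum in 4OHT cells and 42.4% in vehicle cells, Runx2 31.7% and 31.2%, and Runx1 29.6% and 26.4%. The deposited values join all isoforms of a gene, so transcripts of the distal and proximal promoters are not separated.

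Cbfb, the shared partner, had 72.0 FPKM in 4OHT cells and 64.4 FPKM in vehicle cells (1.12-fold, q = 1.00 in the authors' deposited table). Its transcript level exceeded the sum of the 3 Runx genes 1.36 times in 4OHT cells and 1.45 times in vehicle cells. Those are ratios of transcript levels per length, and protein was not measured.

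**Figure D2:**
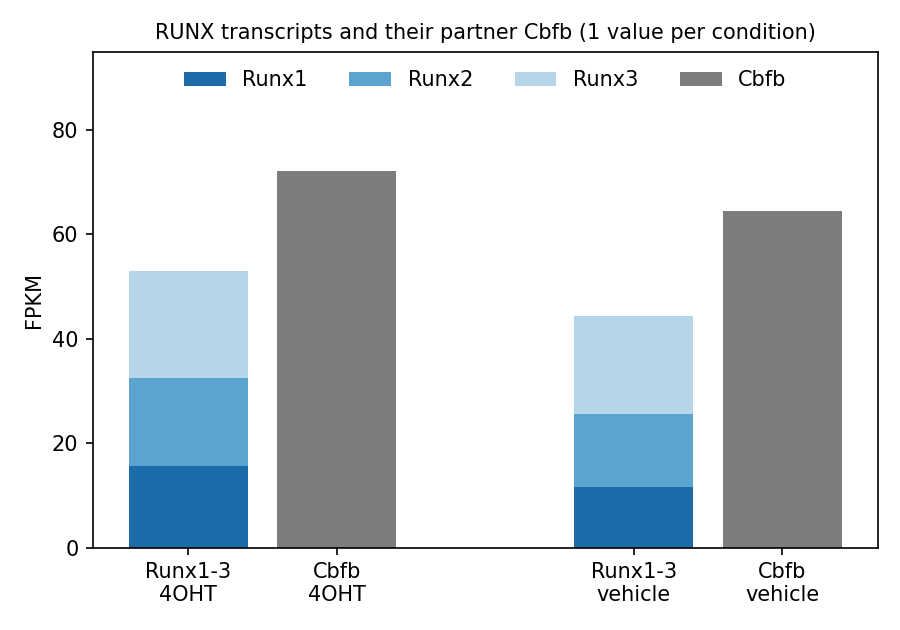
FPKM of Runx1, Runx2 and Runx3, stacked, beside Cbfb, in 4OHT cells on the left and vehicle cells on the right, 1 value each. The Runx stack reaches 52.9 FPKM in 4OHT cells and 44.4 FPKM in vehicle cells, below Cbfb in both.

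The row of Runx2 needs care, because its deposited locus of 623 kb on chromosome 17 of mm9 also holds the row Supt3, a gene of a histone acetyltransferase complex. Supt3 had 10.3 FPKM in 4OHT cells and 10.4 FPKM in vehicle cells (q = 1.00 in the authors' deposited table). No source used here says if strand was kept. Without strand, reads from any exons that overlap cannot be assigned to 1 gene, and overlap of exons was not examined here. No other member shared its locus with another row. Over all members, 39 rows lay within 100 kb, of which 27 were tested and none was called.

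The Myb genes, both of them drivers of proliferation, had slightly lower values after 4OHT and were not called. Myb had 149 FPKM in 4OHT cells and 152 FPKM in vehicle cells (log2 ratio -0.030, q = 1.00 in the authors' deposited table). Mybl2 had 41.1 FPKM in 4OHT cells and 45.1 FPKM in vehicle cells (log2 ratio -0.13, q = 1.00 there). Mybl1, known mainly from male meiosis, was below 1 FPKM, with 0.538 FPKM in 4OHT cells and 0.572 FPKM in vehicle cells. Myb thus exceeded Mybl2 3.62 times in 4OHT cells and 3.36 times in vehicle cells.

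How large a change had to be for a call can be read from other rows at these levels. Among tested rows of 10 to 40 FPKM in the higher condition, changes of 1.2 to 1.3-fold were called in 0 of 306 rows and changes of 1.3 to 1.4-fold in 1 of 137. Changes of 1.4 to 1.5-fold were called in 36 of 67 rows, and changes of 1.5 to 2-fold in 100 of 109. Cbfa2t3 fell in the band where about as many rows were called as not, and Runx1, the member next to the threshold, in the band where almost none were. Differences of the size of those of Runx1 and Runx2 were thus rarely or never called at this level. At an unadjusted p under 0.05 in the authors' deposited table, Cbfa2t3 and Runx1 passed, 2 of 8, against 12.3% of all tested rows. No member reached q under 0.01 (3.84% of tested rows) or a 1.5-fold change (9.90%). When the deposited p-values were adjusted over the 10932 tested rows of at least 1 FPKM, 5.75% of those were called and Cbfa2t3 remained the only member, with q = 0.0372.

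**Figure D3:**
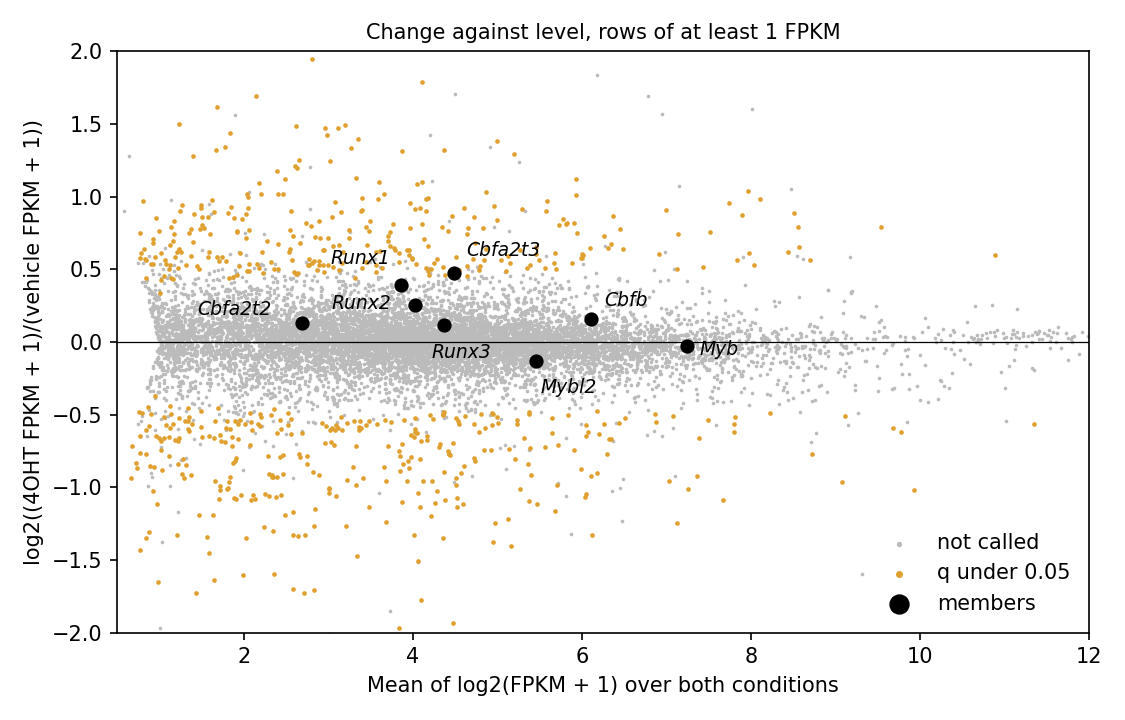
Log2 ratio of 4OHT to vehicle FPKM, with a pseudocount of 1, against mean log2(FPKM + 1), for 10989 rows of at least 1 FPKM, of which 82 lie outside the axes. The members (black) spread from -0.13 for Mybl2 to 0.47 for Cbfa2t3, which sits at the lower edge of the called rows (orange).

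Relatives and partners of these factors, and genes linked to them as targets or by tissue, were taken from 10 lists. The lists held 120 distinct genes, of which 94 reached 1 FPKM in the higher condition. Of those 94, 10 rose and 4 fell, with a median log2 ratio of 0.012. The falls include that of Cebpa, the gene excised by design. Lists are described by counts of measured genes, and the same over all tested rows of at least 1 FPKM was 2.70% higher and 3.10% lower. An unadjusted p under 0.05 in the authors' deposited table was reached by 1287 of those 10932 rows and by 19 of the 94 listed genes.

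Of 13 measured RUNX cofactors none was called, and 1, Cdk6, passed an unadjusted p under 0.05 in the authors' deposited table. Their median log2 ratio was 0.075. Prmt1, an arginine methyltransferase that modifies RUNX1, had 233 FPKM in 4OHT cells and 221 FPKM in vehicle cells. Cdk6, a cyclin-dependent kinase that can bind RUNX1, had 49.5 FPKM in 4OHT cells and 36.3 FPKM in vehicle cells, with q = 0.0913 in that table. Sin3a, a corepressor scaffold, had 28.7 and 27.2 FPKM in 4OHT and vehicle cells, and the histone methyltransferase Suv39h1 36.4 and 35.3 FPKM. The coactivators of the Hippo pathway, Yap1 and Wwtr1, were at or near 0 in both conditions.

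Of 16 genes whose products join ETO corepressors, 2 rose and 14 were not called, with a median of 0.080. An unadjusted p under 0.05 in the authors' deposited table was reached by 4 of the 16. Gfi1b, which encodes a transcriptional repressor that acts in erythroid and megakaryocyte cells, rose 2.94-fold. It had 15.6 FPKM in 4OHT cells against 5.31 FPKM in vehicle cells (q = 0.00165 in the authors' deposited table). Zbtb16, which encodes the repressor PLZF, rose 1.94-fold, to 4.24 FPKM in 4OHT cells against 2.18 FPKM in vehicle cells (q = 0.00165 there). Tal1 and Gfi1 lay just outside the threshold and were chosen after their values were seen. Tal1 had 40.6 FPKM in 4OHT cells and 29.4 FPKM in vehicle cells (q = 0.0624), and Gfi1 had 53.1 FPKM in 4OHT cells and 72.9 FPKM in vehicle cells (q = 0.0531), both q from that table. Bridging proteins and deacetylases of the complex were not called, among them Lmo2 (168 FPKM in 4OHT and 148 FPKM in vehicle cells), Ldb1 (101 and 87.2 FPKM), Lyl1 (129 in both) and Hdac1 (126 and 141 FPKM).

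Neither the partners of Myb nor the complex that contains Mybl2 held a called gene. Of 10 measured Myb partners, 0 passed q under 0.05 and 0 an unadjusted p under 0.05 in the authors' deposited table, with a median log2 ratio of 0.016. The tumour suppressor Men1 had 29.0 FPKM in 4OHT cells and 33.1 FPKM in vehicle cells, and the coactivator Ep300, which binds the Myb activation domain, 15.1 and 14.1 FPKM. Of 14 genes of the DREAM and MMB complexes or tied to them, again 0 passed either threshold, with a median of 0.056. These complexes switch cell cycle genes off in resting cells and on before mitosis. Foxm1 and Ccna2 are counted both here and among the genes linked to Mybl2 in mitosis. Lin9, the subunit next to Mybl2, had 9.93 FPKM in 4OHT cells and 9.86 FPKM in vehicle cells, and E2f4 84.4 and 84.7 FPKM.

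Genes linked to Mybl2 in mitosis held no called member. Of 20 measured genes 0 passed q under 0.05 and 0 passed an unadjusted p under 0.05 in the authors' deposited table. Their values were lower in 4OHT cells for 17 of 20, with a median log2 ratio of -0.086 and a range of -0.26 to 0.027. Over all tested rows of at least 1 FPKM, 5450 of 10932 were lower. The listed genes were not taken as independent of each other, and their lean to lower values was not tested. Ube2c, a ubiquitin-conjugating enzyme of mitotic exit, had 157 FPKM in 4OHT cells and 173 FPKM in vehicle cells. Top2a, the DNA topoisomerase of dividing cells, had 121 and 120 FPKM, and the survival and chromosome passenger gene Birc5 95.3 and 105 FPKM.

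Genes linked to Myb in progenitors held several called members. Of 15 measured genes, 4 rose, 1 fell and 10 were not called, with a median of 0.24. An unadjusted p under 0.05 in the authors' deposited table was reached by 8 of the 15. Besides the called genes, these were Bcl2 and Cdk6, with higher values in 4OHT cells, and Gfi1, with a lower one. The rises were Flt3 (2.24-fold), Sox4 (1.77-fold), Cd34 (1.74-fold) and Kit (1.63-fold), a set of progenitor surface and regulatory genes, and the fall was that of Elane, neutrophil elastase, 1.95-fold lower in 4OHT cells. Each had q = 0.00165 in the authors' deposited table. Myc had 190 FPKM in 4OHT cells and 209 FPKM in vehicle cells, and Mat2a, an enzyme of methyl donor synthesis, 213 and 214 FPKM, and neither was called.

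Of 12 measured genes linked to Runx1, 2 rose, 2 fell and 8 were not called, with a median of -0.086. An unadjusted p under 0.05 in the authors' deposited table was reached by 6 of the 12. Itga2b, the platelet integrin CD41, rose 2.20-fold and Gfi1b rose as above, while Elane fell, and Cebpa, the deleted gene, was 2.55-fold lower, at 42.8 FPKM in 4OHT cells against 109 FPKM in vehicle cells (q = 0.00165 in the authors' deposited table). Spi1, listed under its older symbol Sfpi1 and encoding PU.1, had 81.3 FPKM in 4OHT cells and 99.8 FPKM in vehicle cells and was not called. Nfe2, a megakaryocyte and erythroid factor, had 198 and 164 FPKM and was not called either. Mpo, the myeloperoxidase gene, had 603 FPKM in 4OHT cells and 496 FPKM in vehicle cells (q = 0.603 there).

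The lists tied to Runx3 and Runx2 in their best known tissues lay mostly below 1 FPKM. Of 11 cytotoxic lymphocyte genes linked to Runx3, 4 were measured and 3 of these rose: Gzmb 3.76-fold, Nkg7 1.99-fold and Ccl5 7.42-fold, the last to 2.94 FPKM in 4OHT cells against 0.397 FPKM in vehicle cells, with q = 0.0472 in the authors' deposited table. Zbtb7b, which Runx3 represses in CD8 T cells, had 5.25 FPKM in 4OHT cells and 6.52 FPKM in vehicle cells and was not called. Cd4 and Ifng were listed at 0 in both conditions, and Prf1, Eomes, Tbx21, Cd8a and Itgae lay below 1 FPKM.

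Of 12 skeletal genes linked to Runx2, 2 were measured and both fell. Mmp13, a collagenase, was 2.57-fold lower, at 1.53 FPKM in 4OHT cells against 3.94 FPKM in vehicle cells (q = 0.00165 in the authors' deposited table). Spp1, osteopontin, was 1.69-fold lower, at 10.4 FPKM in 4OHT cells against 17.6 FPKM in vehicle cells (q = 0.0121 there). Macrophages are also known to make both products. Ibsp, Bglap2, Alpl, Dmp1 and Dlx5 were listed at 0 in both conditions. An entry at 0 gives no level.

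**Figure D4:**
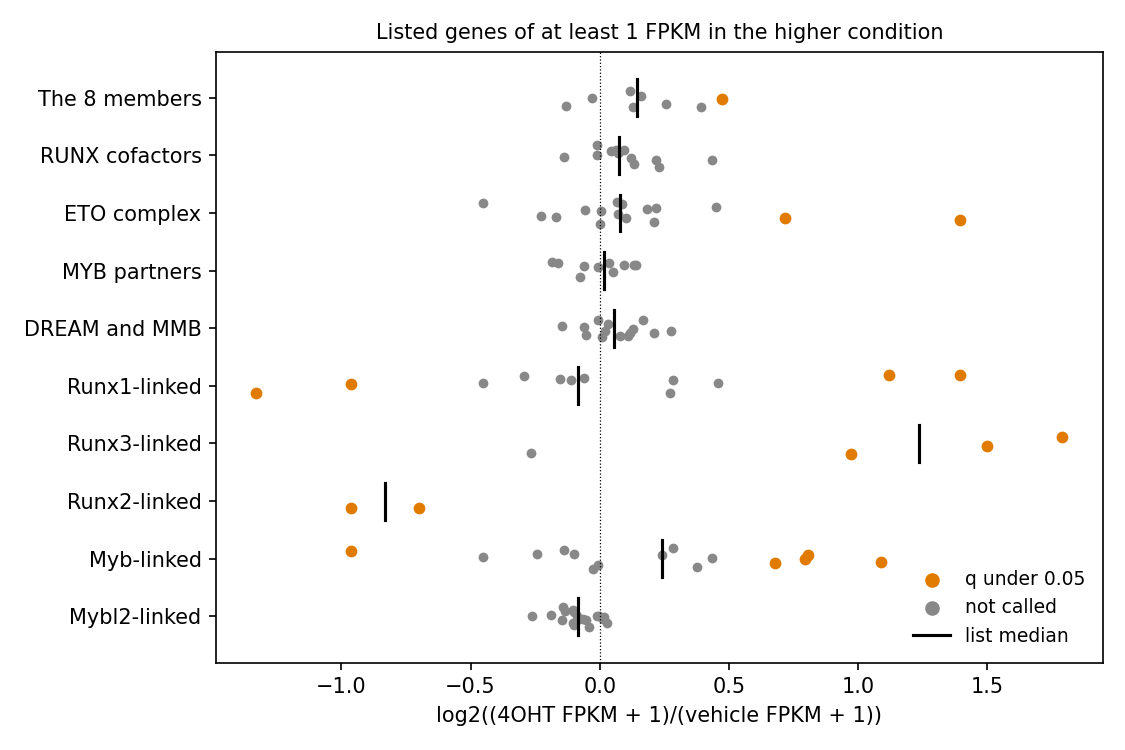
Log2 ratio of 4OHT to vehicle FPKM, with a pseudocount of 1, of each listed gene of at least 1 FPKM, with called genes in orange and the list median as a bar. The Mybl2-linked genes span -0.26 to 0.027 with none called, and the Runx1-linked genes span -1.33, the value of the excised gene Cebpa itself, to 1.39.

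Marker genes were measured for the labelled cell type and for others. Progenitor markers were abundant, with all 8 measured, of which 3 rose and 2 fell. Of 8 T and NK cell markers only the kinase gene Lck was measured, the summed level was 3.81 FPKM in 4OHT cells and 3.75 FPKM in vehicle cells, and Cd3e, Cd3g and Cd4 were listed at 0 in both. Of 8 stromal and bone markers only Pdgfrb was measured, and it rose 2.00-fold, the summed level was 13.8 FPKM in 4OHT cells and 7.48 FPKM in vehicle cells, and Col3a1 was at 0 in both. Lepr, below 1 FPKM, fell to 0.283 FPKM in 4OHT cells against 0.678 FPKM in vehicle cells. Of 6 B cell markers none was measured, with sums of 1.21 and 0.788 FPKM, and of 4 endothelial markers only Pecam1, which blood cells share, with sums of 189 and 214 FPKM. The part of such cells in the members' levels was not tested.

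In marker lists of other blood lineages a few genes rose. Of 6 megakaryocyte markers 3 were measured and 1, Itga2b, rose, with a summed level of 101 FPKM in 4OHT cells and 53.2 FPKM in vehicle cells. Itga2b alone had 88.8 FPKM in 4OHT cells and 40.3 FPKM in vehicle cells, while Pf4, platelet factor 4, had 10.5 and 11.0 FPKM and Ppbp, a platelet chemokine, 0.425 and 0.762 FPKM, and neither was called. Of 5 erythroid markers 2 were measured and 1, the joined row of the near-identical Hbb-b1 and Hbb-b2 genes, rose, with sums of 323 and 175 FPKM. Gata1, also measured, had 1.23 FPKM in 4OHT cells and 0.609 FPKM in vehicle cells and was not called (authors' q = 0.0698). The erythroid markers below 1 FPKM went both ways, and none was called. The joined row of Hba-a1 and Hba-a2 (0.490 and 0.0396 FPKM) and Epor (0.127 and 0.0757 FPKM) were higher in 4OHT cells. Klf1, a defining factor of red cell precursors, was lower, at 0.0719 FPKM in 4OHT cells and 0.215 FPKM in vehicle cells. Epor and Klf1 were not tested. Of 6 mast cell and basophil markers 5 were measured and 2 rose, Cpa3 and Gata2, with sums of 1180 and 720 FPKM, while the basophil protease Mcpt8 had 61.0 and 61.2 FPKM. The part of any of these cell types in the rise of Cbfa2t3 was not tested.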

How the data were processed

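RNA sequencing covered 2 samples, 1 after 4OHT and 1 after vehicle. Per the labels' protocols, total RNA was column-purified and made into TruSeq libraries. The submitters' processing notes list Cuffdiff 2.0.2, Bowtie2 2.0.0.7 and CASAVA 1.8.2, and the build mm9, without saying what each was used for, and no source used here names the annotation. The authors deposited 1 table with FPKM per gene and condition, with a p-value, a q-value and a test statistic (a score) beside them, per the file headers. No read counts are held, so depth is unknown and no counting interval is given. FPKM summed to 673516 in 4OHT cells and 684536 in vehicle cells.

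No test was run, since each condition has 1 value. Calls are the authors' own (status OK, q under 0.05). The deposited q equals a Benjamini-Hochberg adjustment over the tested rows to within 5.28e-07. P-values come in equal steps, and which test made them is not known. Log2 ratios with a pseudocount of 1, medians, shares and motif matches were computed with Python 3.11.15, pandas 2.3.3 and numpy 2.4.6, and the adjustment was tested on simulated data. The members and lists were chosen with earlier results of these data known. Named genes were the members, every called gene of a pathway list, and up to 4 of the most abundant uncalled ones. Others named from the lists were chosen after their values were seen. One marker gene is not reported here. Of 205 list entries, 200 were found under the same symbol, 3 under a RefSeq synonym and 2 in rows that join several symbols. Alternatives were other thresholds, pseudocounts, filters and centring. Coordinates of rows are mm9 with starts from 1, and promoter windows are RefSeq on GRCm38.p6.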

Additional observations from a re-analysis of the deposited data

How the results depend on the processing

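The call of Cbfa2t3 decided the count of members, and it depended on the threshold. The count was 1 as reported, 0 at q under 0.01, 0 at a 1.5-fold change, 2 at an unadjusted p under 0.05 and 0 by the authors' Diff Exp column, the last an alternative chosen after seeing the data. It stayed at 1 when p was adjusted over rows of at least 1 FPKM. Cbfa2t3 stood in place 4 of the members in 4OHT cells and in place 5 in vehicle cells. No member's log2 ratio changed sign with a pseudocount of 0.1 or 0, or when centred on the median of all rows (0.00031) or of the housekeeping list (-0.025). Among lists, the median of the Myb partners was 0.016 at 1 FPKM and -0.0053 at a filter of 5 FPKM. The medians of the lists tied to Runx2 and Runx3 rest on 2 and 4 genes and moved with the filter, to 0 and 0.025 without one. Without the filter the median of the Myb-linked genes was 0.12, against 0.24, and that of the Runx1-linked genes -0.0034, against -0.086. Of the ETO complex 1 gene rose at 5 FPKM, against 2, and of the Runx2-linked genes 1 fell at 5 FPKM or at q under 0.01, against 2. Of the Runx3-linked genes 2 rose at 5 FPKM or at q under 0.01, against 3. Over all lists 8 rose and 3 fell at 5 FPKM, and 9 rose and 3 fell at q under 0.01, against 10 and 4. No paired analysis was possible because each condition has 1 deposited value that joins its replicates, and no replicate could be left out for the same reason. Depth is unknown. At 10 to 40 FPKM, changes of 1.3 to 1.4-fold were called in 1 of 137 rows.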
